A study of Mus musculus with 13 samples.

Results

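The L1Md rows of 2 deposited coverage tables were examined. Each row is a consensus sequence of a mouse LINE-1 subfamily, and a row was taken if its name began with L1Md and it held any nonzero value. These were 27 of the 895 rows with any signal, or of 889 after exact duplicates were removed, in tables of 2035 rows. By name, 7 belong to subfamily A, 6 to F, 3 to Gf, 3 to Tf, 3 to V, 2 to Mus, 2 to Fanc and 1 to N. Of these, 25 stand for whole elements, with consensus lengths of 6153 to 7398 bases implied by the values, and L1Md_F_5end and L1Md_Gf_5end (1139 and 1142 bases) stand for the 5′ end alone. No L1Md name gives a 3′ part, so the 5′ rows were set against the full-length rows of the same subfamily.

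LINE-1 elements are retrotransposons that copy themselves into the genome through an RNA intermediate. A full-length mouse element starts with a 5′ UTR built of repeated units called monomers, which act as the promoter of the sense transcript. The body encodes an RNA-binding protein (ORF1p) and a protein with endonuclease and reverse transcriptase activity (ORF2p), and it ends in a 3′ UTR and a poly(A) tail. Subfamilies A, Gf and Tf are named for their monomer types and hold the elements still able to move in laboratory mice, while F, Fanc, V, Mus and N are older lineages. Most genomic copies have lost their 5′ end, and many lie inside introns, so coverage of a consensus sequence also takes in RNA of host genes that runs through inserted copies, in either direction. DNA methylation is a known repressor of these promoters. TDG is a DNA glycosylase that removes oxidised methylcytosine during DNA demethylation, and Trp53 encodes the tumour suppressor p53.

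The study measured transposon RNA by strand-specific RNA sequencing in mouse tumour cell lines grown in culture. B16 is a melanoma line, with 4 genotypes and 2 libraries each: WT, Trp53 KO, Tdg KO and the Tdg Trp53 DKO. KP, labelled LUAD (lung adenocarcinoma), had 2 WT and 3 Tdg KO libraries. Total RNA was extracted with TRIzol and depleted of ribosomal RNA before directional libraries were made. The sources used here do not give how the knockouts were made, whether a genotype is 1 clone or whether replicates came from separate cultures, so p-values measure only the spread between these libraries. Tdg and Trp53 themselves were not analysed here. Fewer cells of a kind and less RNA per cell cannot be told apart in such bulk samples.

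Coverage is the mean number of reads over each base of a consensus sequence, so rows of different length can be compared. The number of reads per library is unknown and the values were not scaled to it. Between 85.3% and 95.4% of B16 coverage, and between 93.3% and 99.1% of KP coverage, lay on the 7SL consensus, with sense coverage highest in DKO library 1 (1198218) and KP Tdg KO library 1 (3316360). The other repeat sequences summed to between 18137 and 46967 in B16 and between 5242 and 15375 in KP. The lowest nonzero value of an element, times its implied length, was most often 298 bases. This was taken as the length of a single fragment, which the sources used here do not give. By this measure full-length L1Md rows held the equivalent of 205 to 2626 sense fragments in B16 and 38.1 to 618 in KP. The same read can be placed on several of these related sequences, so the rows are not separate measurements.

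Subfamilies F and A were the best covered in both cell lines. L1MdF_IV had the highest mean sense coverage over the 8 B16 libraries (74.0), followed by L1MdF_V (72.8), L1MdF_III (70.3), L1MdA_VI (69.3) and L1MdA_III (67.6). The best-covered Gf row, L1MdGf_II, had a mean of 57.9, and the best-covered Tf row, L1MdTf_III, had 56.2. Among the rows outside A, F, Gf and Tf, L1MdV_I was the best covered with 51.2. L1MdV_II and L1MdV_III were the least covered of the full-length rows at 31.1 and 26.0. The 5′ rows came last, L1Md_F_5end with 25.1 and L1Md_Gf_5end with 12.7. Neighbours in this order lay far inside each other's range over libraries, which ran from 38.3 to 105 for L1MdF_IV.

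**Figure D1:**
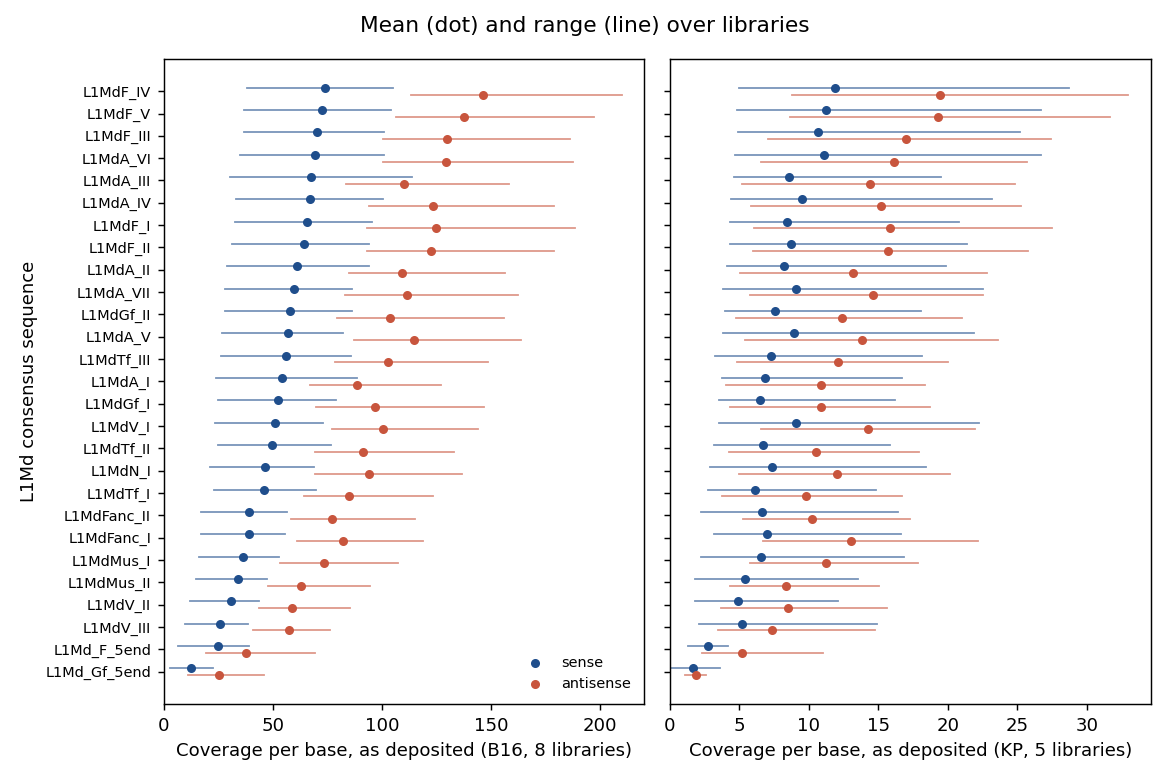
Coverage per base of the 27 L1Md rows in B16 (left, 8 libraries) and KP (right, 5 libraries), with dots for the mean and lines for the lowest and highest library, sense in blue and antisense in red. Rows are ordered by mean B16 sense coverage, from L1MdF_IV (74.0) to L1Md_Gf_5end (12.7), and antisense means exceed sense means in every row.

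The order within a library was steadier than the level. L1MdF_IV was the best-covered sense row in 6 of 8 B16 libraries and 4 of 5 KP libraries, and the best-covered antisense row in 8 of 8 and 3 of 5. L1MdF_V came first in antisense in the other 2 KP libraries. The exceptions in sense were both DKO libraries and KP Tdg KO library 1, where L1MdA_III was first. Between the best and the least covered full-length row, sense coverage differed 2.57-fold to 3.85-fold within the B16 libraries. KP kept F and A rows at the top, with L1MdF_IV at a mean of 11.9, but its coverage was lower throughout. As the depth of neither table is known and no KP library shares a table with B16, this difference of level between the lines was not tested.

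The 2 WT libraries of B16 differed far more in sense than in antisense. Median sense coverage of the 25 full-length rows was 31.0 in WT library 1 and 73.8 in WT library 2. In antisense the medians were 104 and 116. The ratio of WT library 2 to library 1 ran from 1.92 to 2.62 over the full-length sense rows (median 2.28) and from 0.992 to 1.17 in antisense. In KP the imbalance fell on the other strand, with ratios of 0.711 to 1.03 in sense and 1.70 to 2.71 in antisense. Any sense difference against B16 WT of less than about that size therefore lies inside the gap between the WT libraries themselves.

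**Figure D2:**
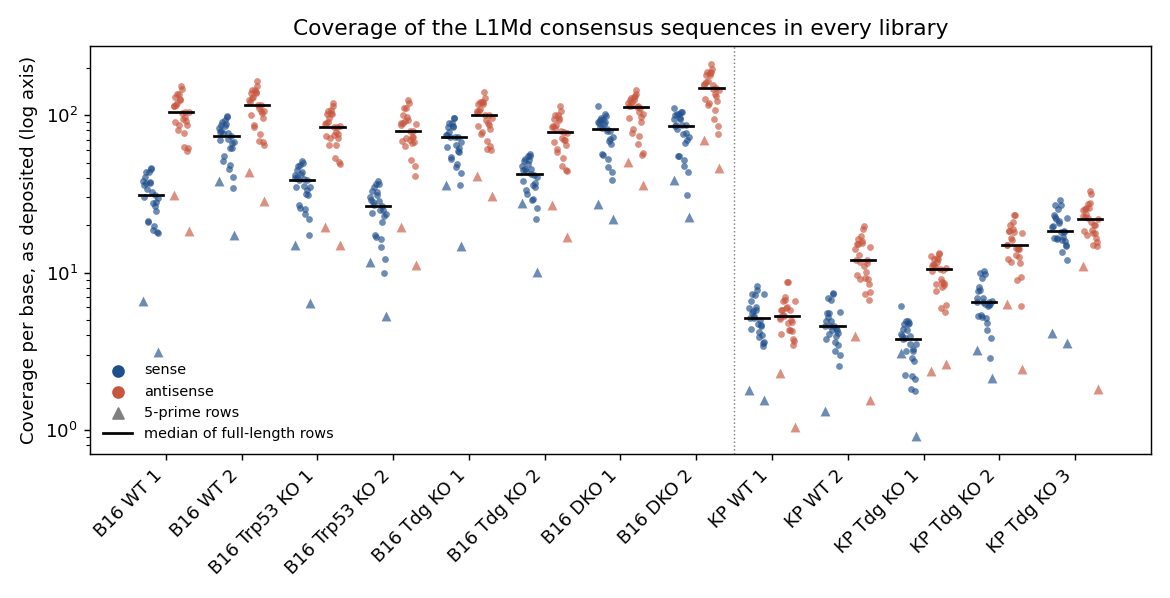
Coverage per base of every L1Md row in each of the 13 libraries on a log axis, sense in blue and antisense in red, with triangles for the 5′ rows and bars for the median of the 25 full-length rows. The B16 antisense medians stay within 78.7 and 149 while the sense medians run from 26.5 to 85.5. The sense value of L1Md_Gf_5end in KP WT library 2 is 0 and is not drawn.

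Antisense coverage exceeded sense coverage on the L1Md rows in B16. In B16, 27 of 27 rows were higher in antisense in every library except Tdg KO library 2, with 26. Summed antisense over summed sense coverage was 3.36 and 1.58 in the WT libraries and 2.30 and 3.17 in Trp53 KO. It was 1.41 and 1.83 in Tdg KO, and 1.37 and 1.86 in DKO. Repeats other than LINE-1 and 7SL, summed, had a log2 ratio of sense to antisense between 0.75 and 2.89 in B16. The sense strand of this sum was the higher in all 8 libraries. A few abundant rows can set such a sum, and its rows were not compared one by one. Antisense made up at most 0.0416% of 7SL coverage in B16 and at most 0.710% in KP. The KP maximum was in Tdg KO library 1, where 7SL sense coverage was 3316360 and summed L1Md antisense coverage 256. In that library a small share of 7SL coverage was therefore more than all L1Md antisense coverage. A part of wrong-strand reads in the L1Md antisense values was not tested.

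KP showed the same antisense excess in 3 libraries and near balance in 2. The summed ratio of antisense to sense was 2.63 in WT library 2 and 2.69 and 2.31 in Tdg KO libraries 1 and 2, but 1.02 in WT library 1 and 1.13 in Tdg KO library 3. Correspondingly, 16 of 27 rows were higher in antisense in WT library 1, 23 in Tdg KO library 3 and at least 26 in the other libraries. The near-balanced libraries belong to different genotypes. Older LINE-1 rows (41 rows with signal, names such as Lx and L1_) also leaned to antisense in B16, with log2 ratios of sense to antisense between -2.13 and -0.76, and in KP between -1.25 and 0.43.

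**Figure D3:**
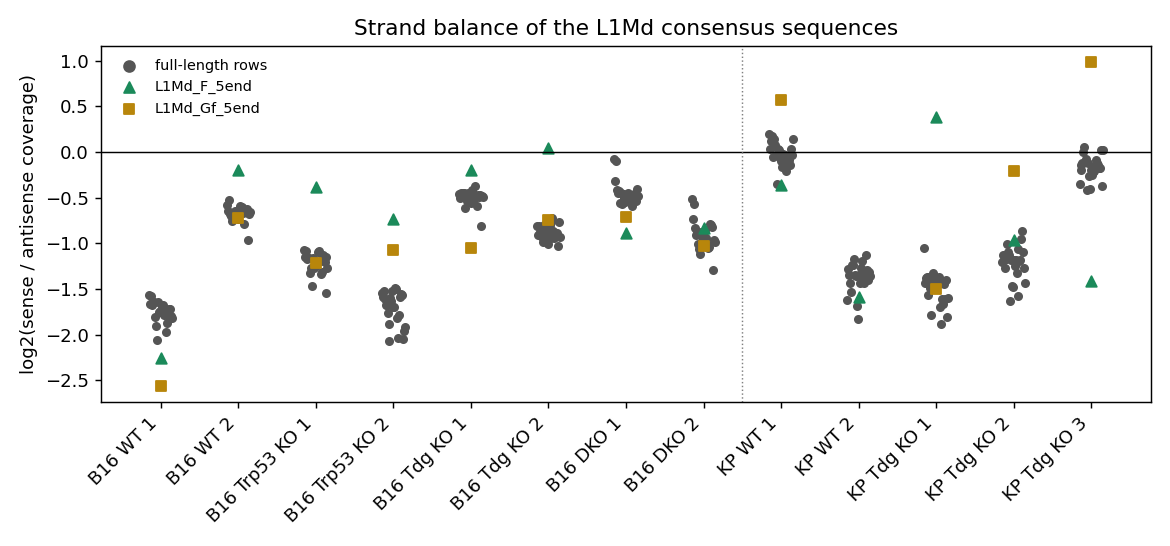
Log2 ratio of sense to antisense coverage for every L1Md row in each library. Grey dots are the 25 full-length rows, which move together from library to library, and coloured symbols are the 5′ rows, which lie apart from them in several libraries. All B16 full-length rows lie below 0, where antisense exceeds sense.

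The strand ratio was then compared between genotypes, which needs no knowledge of depth. In Tdg KO against B16 WT all 27 rows shifted toward sense by a median of 0.51 on the log2 scale, and 0 of 27 passed the test, as did 0% of the 730 elements tested in either direction (limma, adjusted p at 0.05). In DKO against Trp53 KO the median shift toward sense was 0.76, positive in 26 rows, and 0 passed, beside 0.137% of all elements with a higher and 1.23% with a lower ratio. The median was -0.24 in Trp53 KO against WT, -0.01 in DKO against Tdg KO and -0.23 in KP Tdg KO against WT, with 0 rows called in each. At an unadjusted p of 0.05, also 0 rows were called in any of these 5 comparisons. Single libraries decided some of these medians. Tdg KO against WT gave -0.02 without WT library 1 and 1.05 without WT library 2, and Trp53 KO against WT gave -0.73 and 0.28. DKO against Trp53 KO ran from 0.51 to 0.99 when single libraries were left out, and DKO against Tdg KO from -0.23 to 0.21. KP gave 0.41 without WT library 1 and -0.90 without WT library 2. WT and Trp53 KO libraries each serve in more than 1 of them, so the shifts are not independent of each other.

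L1Md sense RNA was then taken as a share of all repeat coverage other than 7SL and piRNA loci, and the B16 groups compared overlapped except for DKO and Trp53 KO. The sense share was 3.10% and 7.60% in the B16 WT libraries and 3.37% and 3.20% in Trp53 KO. It was 7.45% and 5.95% in Tdg KO, and 4.23% and 6.83% in DKO. DKO (5.53% ± 1.84, SD, n = 2) lay above Trp53 KO (3.29% ± 0.121, SD, n = 2) without overlap, 1.68-fold by the group means, with an exact two-sided permutation p = 0.33, the smallest that 2 against 2 libraries allow. Tdg KO and WT overlapped (1.25-fold, exact permutation p = 1.00).

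The antisense share lay between 7.75% and 12.7% in 7 B16 libraries. It was 5.79% in DKO library 1, which also had the highest 7SL coverage of its table. The DKO libraries therefore lay further apart in antisense (SD 4.90, n = 2) than in sense (SD 1.84, n = 2). Trp53 KO (7.75% and 10.2%) lay below WT (10.4% and 12.05%) without overlap, 0.798-fold (exact permutation p = 0.33). In KP the sense share was 2.64% and 2.16% in WT and 0.617%, 1.66% and 4.16% in Tdg KO. Its lowest value was in Tdg KO library 1, the library with the highest 7SL coverage. The KP groups overlapped on both strands (exact permutation p = 0.80 each, where the smallest possible is 0.10).

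The make-up by subfamily was then compared. Subfamily A took 30.1% to 32.7% of L1Md sense coverage over the B16 libraries, F 25.3% to 28.5%, Tf 10.5% to 11.4% and Gf 7.92% to 9.22%. In antisense the ranges were 29.9% to 30.6% for A, 26.5% to 27.2% for F, 10.6% to 11.0% for Tf and 7.69% to 9.65% for Gf. KP had slightly less Tf and Gf, with medians of 9.86% and 7.65% of sense coverage against 10.9% and 8.94% in B16. The shares count rows as well as coverage, since A has more rows in the table than Gf or Tf.

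Summed over the rows of a subfamily, the DKO libraries held a larger A share in sense than the Trp53 KO and Tdg KO libraries. They also held a larger Gf share in antisense. The A rows did not all go this way, as described below. The A share of sense coverage was 32.7% and 32.4% in DKO, against 31.0% and 31.3% in Trp53 KO and 30.2% and 30.1% in Tdg KO. WT library 1, at 32.6%, reached the DKO level. In antisense the A share was lower in DKO, at 30.1% and 29.9%, than in Trp53 KO, at 30.3% and 30.6%, without overlap (-0.42 percentage points). The Gf share of antisense coverage was 9.65% and 9.18% in DKO and 8.13% and 7.69% in Trp53 KO, a difference of 1.51 percentage points. It was 8.93% and 8.50% in Tdg KO and 8.12% and 8.78% in WT. These DKO differences from Trp53 KO each had an exact permutation p = 0.33, and L1Md_Gf_5end, 1 of the 3 Gf rows, is described below. The differences were also taken with the median over the rows of a subfamily in place of their sum. DKO against Trp53 KO then gave 0.76 points for A in sense and 1.95 for Gf in antisense. For A in antisense it gave 0.099 points, so this difference changed sides.

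Within subfamily A, L1MdA_III stood apart. Its sense coverage was 138% and 130% of the median full-length row in the DKO libraries, against 109% and 114% in Trp53 KO, 104% and 114% in Tdg KO, and 124% and 113% in WT. L1MdA_I went the same way, with 108% and 100% in DKO, where the other B16 libraries had 87.0% to 97.9%. L1MdA_II was also higher in DKO (111% and 110%) than in Trp53 KO (104% and 109%). L1MdA_VI was lower in DKO (117% and 118% against 123% and 131%), as was L1MdA_VII (102% and 101% against 106% and 106%). L1MdA_IV and L1MdA_V overlapped between these groups. In antisense L1MdA_III stayed between 103% and 111% in all 8. In KP the sense value was 162% in Tdg KO library 1 and 101% to 115% in the other 4 libraries. DKO library 1 and KP Tdg KO library 1 had the highest 7SL coverage of their tables, while DKO library 2, at 130%, did not, and a part of 7SL in this value was not tested.

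The 5′ rows give the coverage over the start of an element. If a read matching both kinds of row counted fully on each, equal coverage along an element would give 100% of the full-length rows. How such reads were counted is not known. The 5′ rows gave less than 100% in every library on both strands, and a part of read placement in this was not tested. The F row stood at 15.6% to 51.4% of the mean full-length F row in sense over B16 and at 17.9% to 37.8% in antisense. The Gf row stood at 10.4% to 27.5% in sense and 14.9% to 31.8% in antisense. In KP the ranges were 16.9% to 65.1% and 18.9% to 37.9% for F, and 0% to 37.2% and 9.09% to 26.5% for Gf. KP values of the 5′ rows are low in absolute terms, with sense coverage of at most 4.14, so a few fragments set each one.

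In antisense, the 5′ share separated DKO from Trp53 KO. For F the Trp53 KO libraries had 17.9% and 18.0% and the DKO libraries 37.8% and 36.0%, a log2 difference of 1.04 or 2.05-fold. For Gf it was 18.9% and 14.9% against 31.8% and 30.3%, a log2 difference of 0.89 or 1.85-fold. Neither pair overlapped, and both had an exact permutation p = 0.33. WT (22.7% and 29.4% for F, 18.6% and 25.1% for Gf) and Tdg KO (32.6% and 26.3%, 31.8% and 22.3%) lay between or beside them, and Tdg KO and WT overlapped for both rows.

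In sense, the 5′ share of Gf was 27.2% and 27.5% in DKO against 17.3% and 20.0% in Trp53 KO, a log2 difference of 0.56 without overlap (exact permutation p = 0.33). The F share was 28.9% and 39.0% in DKO against 31.9% and 33.5% in Trp53 KO, which overlap. In WT the sense shares were 15.6% and 41.2% for F and 10.4% and 23.3% for Gf, so WT library 1 had the least 5′ coverage of the B16 libraries on this strand. Whether the F and Gf differences themselves differ was not tested.

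**Figure D4:**
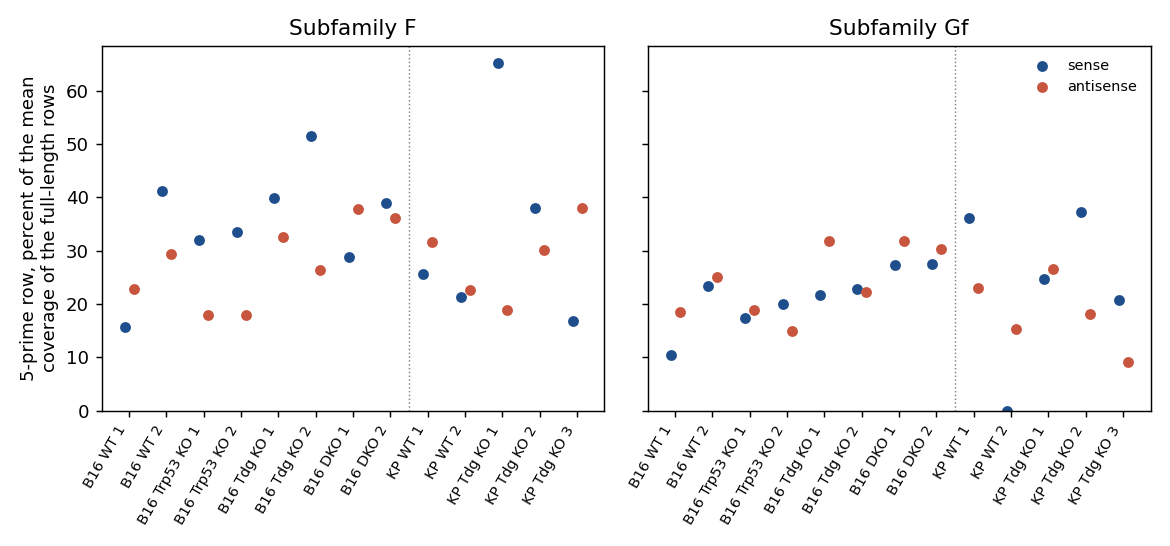
Coverage of the 5′ row as a percent of the mean full-length row of its subfamily, F on the left and Gf on the right, for each library and strand. In antisense (red) the Trp53 KO libraries give 17.9% and 18.0% for F and the DKO libraries 37.8% and 36.0%, while the 3 KP Tdg KO libraries spread from 18.9% to 37.9%.

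The coverage of each row was then tested between genotypes on the log2 scale of coverage plus 0.1, over 1246 features in B16 and 984 in KP, a feature being 1 strand of an element. All 54 L1Md features passed the filter on low values in both tables. Since depth is unknown, each change stands beside the median of all features, and beside the value after median-ratio scaling, in which a library is divided by its median ratio to the average library. The B16 factors were 0.69 and 0.93 in WT, 0.61 and 0.52 in Trp53 KO, 0.86 and 0.65 in Tdg KO, and 1.76 and 1.37 in DKO.

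Loss of Tdg in WT cells came with no L1Md change that passed. L1MdF_IV sense coverage was 46.2 and 98.6 in WT and 95.7 and 56.5 in Tdg KO. L1MdA_VI gave 43.4 and 90.1 against 88.9 and 52.8, and L1MdGf_II gave 32.3 and 77.1 against 72.3 and 45.7. L1MdTf_III gave 31.0 and 73.8 against 72.5 and 41.9, and L1MdV_I gave 29.8 and 67.6 against 67.6 and 40.4. In each of these rows the Tdg KO libraries lay inside the gap between the WT libraries or at its edge. Of 27 sense rows and 27 antisense rows, 0 passed, as did 0% of all features on either strand, and 0 had an unadjusted p under 0.05 (limma).

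The median log2 change was 0.19 in sense, where all features had -0.02, and -0.33 in antisense, where all features had -0.12. In antisense 24 of 27 rows were lower in both Tdg KO libraries than in both WT libraries, beside 22.5% of all antisense features, and 13 were after scaling, beside 17.7%. The smallest unadjusted p belonged to antisense L1MdN_I, which had 97.5 and 107 in WT and 89.1 and 69.6 in Tdg KO (log2 change -0.37, adjusted p = 1.00 by limma). L1MdA_III (-0.36) and L1MdA_VII (-0.37) in antisense followed, with the same adjusted p.

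Loss of Trp53 alone also gave no L1Md change that passed. As deposited, the median change was negative on both strands, as it was over all features. L1MdF_IV sense coverage was 50.8 and 38.3 in Trp53 KO against 46.2 and 98.6 in WT, and in antisense 120 and 124 against 153 and 164. The sense groups overlapped and the antisense groups did not. L1MdA_VI antisense gave 106 and 111 against 136 and 145, and L1MdGf_II antisense 83.5 and 79.3 against 104 and 116. L1MdTf_III antisense gave 84.6 and 79.9 against 104 and 117, and L1MdV_I antisense 85.1 and 88.5 against 105 and 107.

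All 27 antisense rows were below both WT libraries, where 42.3% of all antisense features were, and in sense 1 row was (L1MdV_III), where 28.5% of all sense features were. With scaling, 2 of 27 antisense rows were below, beside 16.3%. Of 54 L1Md features 0 passed, beside 0% of all features, and 1 had an unadjusted p under 0.05 with a lower value, beside 5.22% of all features (limma). This was antisense L1Md_F_5end, with 19.6 and 19.6 in Trp53 KO against 31.3 and 43.7 in WT (log2 change -0.91, adjusted p = 0.657). L1Md_Gf_5end in antisense (-0.82) and L1MdV_III in sense (-0.92) came next, each with an adjusted p of 0.704. Median changes were -0.63 in sense and -0.41 in antisense, where all features had -0.37 and -0.45, and -0.13 and 0.09 after scaling.

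Loss of Tdg in Trp53 KO cells was the only comparison in which L1Md features passed. On the L1Md rows 4 features rose, L1MdA_III and L1MdA_I in sense and the 5′ rows of F and Gf in antisense, and 0 fell. L1MdA_III had sense coverage of 114 and 111 in the DKO libraries against 41.8 and 30.3 in Trp53 KO (log2 change 1.66, SE 0.44, adjusted p = 0.0345 by limma). L1MdA_I sense coverage went from 34.7 and 23.8 to 88.9 and 85.5 (1.60, SE 0.47, adjusted p = 0.0451). Both are rows of subfamily A, and DKO library 1 was the higher of its pair in each.

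L1Md_F_5end antisense coverage went from 19.6 and 19.6 to 50.6 and 69.3 (log2 change 1.59, SE 0.33, adjusted p = 0.0209 by limma). L1Md_Gf_5end antisense coverage went from 15.0 and 11.2 to 36.0 and 45.9 (1.65, SE 0.41, adjusted p = 0.0278). For these rows DKO library 2 was the higher. The libraries of the compared groups did not overlap for any of the 4.

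These counts stand against a table in which much else rose. Of 27 sense rows 2 rose, where 26.2% of all sense features did, and of 27 antisense rows 2 rose, where 33.2% of all antisense features did. Over both strands 4 of 54 passed beside 29.5% of all features, so at this adjusted threshold the L1Md share was below the background. The median log2 change of the rows was 1.35 in sense and 0.59 in antisense, below the medians of all features (1.61 and 1.78). At an unadjusted p under 0.05, 26 of 27 sense and 9 of 27 antisense rows were higher (limma). Of all sense and antisense features, 45.2% and 52.2% were. The L1Md share was then above the background in sense and below it in antisense, so the reading depends on the threshold. Among the older LINE-1 rows, 5 of 30 in sense and 14 of 34 in antisense rose.

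In sense, the best-covered rows of A, F, Gf, Tf and the rest did not pass. L1MdF_IV gave 50.8 and 38.3 in Trp53 KO against 101 and 105 in DKO. L1MdA_VI gave 47.5 and 34.8 against 96.0 and 101, and L1MdGf_II gave 39.2 and 28.3 against 82.3 and 86.5. L1MdTf_III gave 38.6 and 26.5 against 79.1 and 86.0, and L1MdV_I gave 35.2 and 23.4 against 73.1 and 72.8. In each row both DKO libraries were above both Trp53 KO libraries, and the adjusted p ran from 0.0642 for L1MdA_VI to 0.0715 for L1MdF_IV (limma). The 5′ rows in sense had adjusted p of 0.0869 (Gf) and 0.210 (F).

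In antisense the DKO values of the same rows were nearer to Trp53 KO. L1MdF_IV had 120 and 124 in Trp53 KO against 145 and 210 in DKO, and L1MdA_VI had 106 and 111 against 129 and 188. L1MdGf_II had 83.5 and 79.3 against 113 and 156, L1MdTf_III had 84.6 and 79.9 against 111 and 149, and L1MdV_I had 85.1 and 88.5 against 102 and 144. DKO library 2 was the higher in every one of them. All 27 sense and all 27 antisense rows were above Trp53 KO without overlap, where 63.2% and 75% of all sense and antisense features were.

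After median-ratio scaling, 24 of 27 sense and 25 of 27 antisense rows had a log2 change below 0. Of 54 L1Md features 0 passed, beside 6.18% of all features in the rising and 3.93% in the falling direction. The sense median was -0.11 and the antisense median -0.87, where all features had 0.47 and 0.78. In antisense 25 of 27 rows were then lower in DKO without overlap, beside 23.7% of all antisense features, and 22 of them had an unadjusted p under 0.05, as did 11.7% of all antisense features in that direction. The 4 features that had passed stayed above 0, with log2 changes of 0.20 for L1MdA_III and 0.14 for L1MdA_I in sense and 0.14 for L1Md_F_5end and 0.20 for L1Md_Gf_5end in antisense. L1Md_Gf_5end in sense was the other row above 0 (0.46). Scaled medians of the full-length antisense rows were 138 and 153 in Trp53 KO against 63.9 and 108 in DKO. Whether L1Md RNA per cell rose or fell therefore cannot be told from these values, while the higher 5′ share in antisense is a ratio within a library and does not depend on the scaling.

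**Figure D5:**
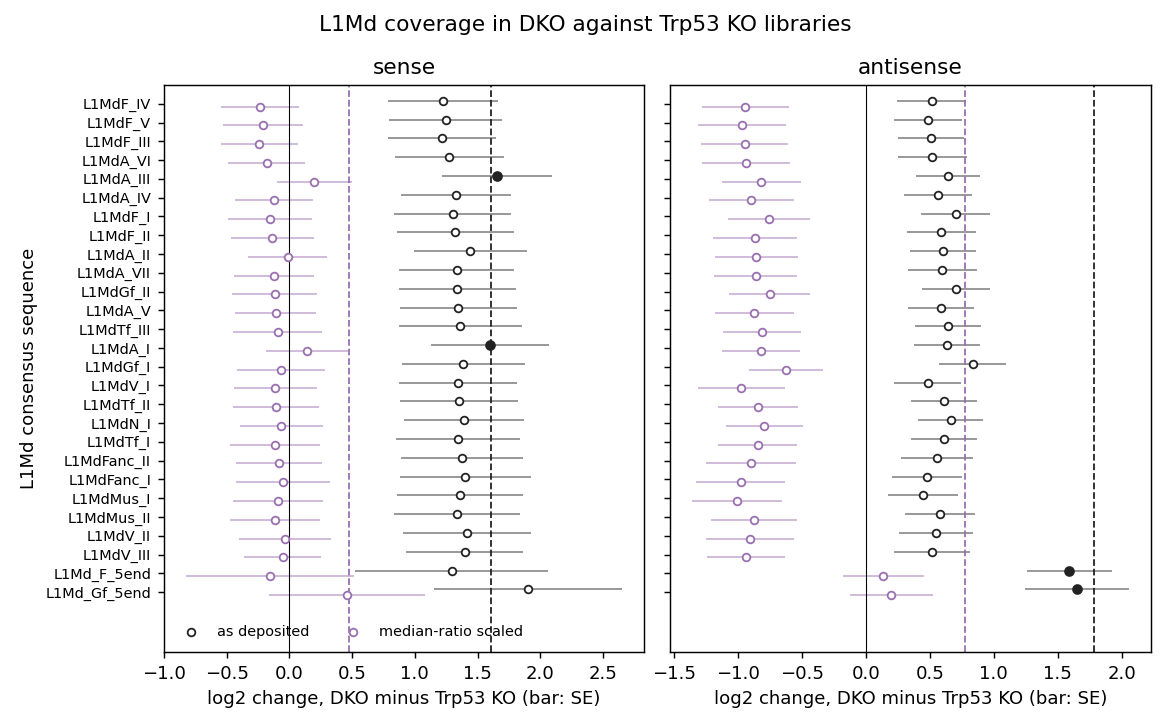
Log2 change in DKO against Trp53 KO of every L1Md row in sense (left) and antisense (right), with bars for the SE and filled points for features that passed. Black is as deposited and purple after median-ratio scaling, and dashed lines mark the medians of all features in the same colour (1.61 and 0.47 in sense, 1.78 and 0.78 in antisense). Of the antisense rows, the 5′ rows of F and Gf stand apart from the full-length rows on both scales.

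The 4 calls depended on single libraries. Without either WT library, which enters through the common estimate of the spread, 27 features passed (25 sense and 2 antisense). Without any 1 of the Trp53 KO or DKO libraries 0 passed, and without either Tdg KO library 2 passed, both in antisense. Over these fits the log2 changes ran from 1.42 to 1.89 for L1MdA_III, from 1.33 to 1.87 for L1MdA_I, from 1.36 to 1.82 for L1Md_F_5end and from 1.44 to 1.86 for L1Md_Gf_5end. With only the 4 libraries of the 2 groups in the fit, 0 passed and 30 of 54 had an unadjusted p under 0.05 with a higher value in DKO, beside 43.1% of all features (limma). For all features the calls in the rising direction also moved, from 368 to between 2 and 393.

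Loss of Trp53 in Tdg KO cells, which shares its DKO libraries with the comparison above, gave no L1Md feature that passed, beside 3.05% of all features in the rising and 0.0803% in the falling direction. By strand, 2.17% of all sense and 4% of all antisense features rose. The smallest unadjusted p belonged to L1MdGf_I in antisense, with 93.2 and 71.6 in Tdg KO and 114 and 147 in DKO (log2 change 0.66, adjusted p = 0.136 by limma). L1Md_F_5end antisense gave 41.1 and 26.8 against 50.6 and 69.3 (0.83, adjusted p = 0.137), and L1MdN_I antisense 0.60 (adjusted p = 0.161). These groups did not overlap.

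In this comparison 24 of 27 sense and 25 of 27 antisense rows were higher in DKO without overlap, beside 58% and 66.5% of all features. After scaling, 24 sense and 25 antisense rows were lower in DKO without overlap, beside 26% and 23.8%. As deposited, L1MdF_IV sense coverage was 95.7 and 56.5 in Tdg KO and 101 and 105 in DKO, and L1MdA_VI was 88.9 and 52.8 against 96.0 and 101. L1MdGf_II was 72.3 and 45.7 against 82.3 and 86.5, L1MdTf_III 72.5 and 41.9 against 79.1 and 86.0, and L1MdV_I 67.6 and 40.4 against 73.1 and 72.8. The gap rests on Tdg KO library 2, as library 1 came close to DKO. Medians were 0.52 in sense and 0.53 in antisense (all features 1.10 and 1.19), and -0.54 and -0.53 after scaling. With scaling 0 of 54 passed, beside 0.722% of all features in the rising and 0.161% in the falling direction. Of the older LINE-1 rows 0 of 30 in sense and 3 of 34 in antisense rose.

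Whether the change with Tdg loss differed between Trp53 KO and WT cells was tested as an interaction. Of 54 L1Md features 0 passed, as did 0% of all features, and 17 had an unadjusted p under 0.05, all with a larger change in Trp53 KO cells, beside 34.3% of all features (limma). After scaling 0 L1Md features had an unadjusted p under 0.05. The smallest p belonged to antisense L1Md_F_5end (log2 difference of changes 1.75, SE 0.47, adjusted p = 0.0757). L1MdGf_I (1.16, adjusted p = 0.0866) and L1Md_Gf_5end (1.66, adjusted p = 0.0986) in antisense followed. The medians were 1.14 in sense and 0.93 in antisense, below those of all features (1.52 and 1.81), and turned to -0.42 and -0.63 after scaling.

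In KP cells, Tdg KO and WT overlapped for nearly every row. L1MdF_IV sense coverage was 8.17 and 7.44 in WT and 4.95, 10.2 and 28.7 in Tdg KO, and antisense coverage was 8.75 and 19.0 against 13.3, 23.3 and 32.9. L1MdA_VI gave 7.27 and 6.92 against 4.69, 9.94 and 26.7 in sense, and 6.58 and 16.3 against 12.1, 20.0 and 25.7 in antisense. L1MdGf_II gave 4.69 and 4.59 against 3.95, 6.33 and 18.1 in sense. Tdg KO library 3 was the highest of the 5 in each, and in sense Tdg KO library 1 was the lowest.

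L1MdTf_III and L1MdV_I showed the same arrangement. L1MdTf_III sense coverage was 4.57 and 4.32 in WT and 3.26, 6.19 and 18.1 in Tdg KO, and L1MdV_I was 7.27 and 5.63 against 3.53, 6.57 and 22.3. Of 54 features 0 passed, as did 0% of all features, and 0 had an unadjusted p under 0.05 (limma). Without overlap, 2 sense and 2 antisense rows were higher in Tdg KO, beside 16.2% and 22.5% of all features. After scaling 1 sense and 0 antisense rows were, beside 5.08% and 8.26%. Medians were 0.62 in sense and 0.85 in antisense, where all features had 0.60 and 0.83, and -0.07 and 0.16 after scaling.

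The features with the smallest unadjusted p in KP were L1Md_F_5end in sense, L1Md_Gf_5end in sense and L1MdA_I in antisense, each with an adjusted p of 0.777 by limma. L1Md_F_5end sense coverage was 1.80 and 1.31 in WT and 3.08, 3.24 and 4.14 in Tdg KO, without overlap. L1MdA_I antisense coverage was 4.04 and 9.59 in WT and 10.2, 12.1 and 18.4 in Tdg KO, also without overlap. L1Md_Gf_5end sense coverage was 1.55 and 0 in WT and 0.921, 2.13 and 3.57 in Tdg KO, which overlap. The antisense 5′ shares that separated DKO from Trp53 KO in B16 overlapped here, with log2 differences of 0.06 for F and -0.21 for Gf (exact permutation p = 1.00 each).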

How the data were processed

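Strand-specific RNA sequencing of 8 B16 and 5 KP libraries was deposited as 2 tables of sense and antisense values per element. Per the file headers the values are piPipes mean signal, taken as coverage per base. Antisense values carried a minus sign in the deposited tables, which was dropped. HISAT2, DESeq2 and the mm10 build are named in the submitters' processing notes with no role. The sources used here do not give aligner settings, the handling of reads with several matches or read numbers. Of 661 elements with at least 6 nonzero values, 561 had a single implied length: multiplying by it gave whole numbers within 0.002, so the deposited coverage was not scaled to depth.

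Here, log2 of coverage plus 0.1 was fitted per table with limma 3.58.1 in R 4.3.3 (lmFit, eBayes with trend). Features had a mean coverage of at least 0.1, and both strands shared the fit. Contrasts were two-sided and adjusted by Benjamini-Hochberg over all features at 0.05. All groups of a table entered, with 4 residual degrees of freedom in B16 and 3 in KP. Median-ratio scaling used features with mean coverage of at least 1. Shares and 5′ ratios were compared by exact permutation (SciPy 1.17.1). Older LINE-1 rows were taken by name. The fit was tested on simulated data. Duplicated rows were removed once, and no library was left out.

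The members and lists were chosen with earlier results of these data known. By rule, the best-covered sense row of subfamilies A, F, Gf, Tf and the rest is given in every comparison. Up to 10 features that passed without overlap are added, or the 3 with the smallest p where fewer than 3 passed. Other rows named were chosen after their values were seen. Same-numbered replicates did not deviate together. Alternatives were other scalings, pseudocounts and filters, robust estimation, a replicate block, only the compared groups, no piRNA loci, other denominators, the median over rows for subfamily shares and leaving out each library.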

Additional observations from a re-analysis of the deposited data

Results flagged for a closer look

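The subfamily make-up of L1Md sense coverage differed with Tdg loss on opposite sides in the 2 Trp53 backgrounds of B16, with groups that did not overlap and an exact permutation p = 0.33 for each difference. The A share was 1.39 percentage points higher in DKO than in Trp53 KO, and Tdg KO minus WT was -1.55 points, or -0.62 without WT library 1. The F share in Tdg KO was 0.13 points above WT, and DKO minus Trp53 KO was -1.86 points. With the median over the rows of a subfamily in place of their sum, A gave 0.76 and -1.11 points, while F gave -0.51 in Tdg KO against WT and -1.36 in DKO against Trp53 KO, on the same side. These differences of differences were not tested.

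Antisense coverage of L1MdA_I lay above WT in every KP Tdg KO library (log2 change 1.06) and below WT in every B16 Tdg KO library (-0.32). Of all antisense features, 22.5% were likewise higher in KP and 22.5% lower in B16. Of the 27 L1Md antisense rows, 2 were higher in KP and 24 lower in B16. Neither change passed, the lines were in separate tables, and the difference between them was not tested. The values above were read off as deposited, without knowledge of depth. After median-ratio scaling the KP groups overlapped, with 6.78 and 12.9 in WT and 11.4, 11.4 and 13.7 in Tdg KO. The scaled B16 groups did not, with 132 and 107 in WT and 99.6 and 104 in Tdg KO.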

How the results depend on the processing

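For DKO against Trp53 KO, 4 L1Md features were higher as reported. The count was 0 with median-ratio scaling, 0 with median centring, 0 with quantile normalization and 0 with only the groups compared. With the replicate number as a block it was 2, and it ran from 0 to 27 when single libraries were left out. Median centring gave 1 feature lower. It also turned the 4 named changes negative, to -0.45 for L1MdA_I and -0.39 for L1MdA_III in sense and -0.46 for L1Md_F_5end and -0.40 for L1Md_Gf_5end in antisense. Other pseudocounts, filters, robust estimation and leaving out piRNA loci gave 3 to 6. In DKO against Tdg KO, median-ratio scaling, median centring and quantile normalization gave -0.40, -0.84 and -0.47 for antisense L1MdGf_I, -0.46, -0.90 and -0.54 for L1MdN_I, and -0.22, -0.67 and -0.16 for L1Md_F_5end. In the interaction they gave -0.40, -1.02 and -0.28 for L1MdGf_I, and median centring gave -0.43 for L1Md_F_5end and -0.52 for L1Md_Gf_5end. In all of these the change is measured against other features once a library is scaled.

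With the L1_Mus1_3end and L1_Mus2_3end rows as the denominator of the 5′ ratios, chosen after seeing the data, the log2 difference in antisense for DKO against Trp53 KO became 1.53 for F and 1.59 for Gf. For Trp53 KO against WT it became -1.03 and -0.94. In sense, Gf gave 0.77 for DKO against Trp53 KO and 0.16 against Tdg KO. With the median over the rows of a subfamily in place of their sum, 11 of 40 differences in subfamily share moved by more than the spread between libraries. With LINE-1 rows alone as denominator, the antisense share in Trp53 KO against WT went to 0.035 (log2). The cause was not tested. Leaving out single libraries, the antisense share (log2) ran from -0.88 to 0.25 in DKO against Tdg KO, from -0.63 to 0.51 in DKO against Trp53 KO, and from -0.17 to 0.040 in Tdg KO against WT. The sense share ran from -0.66 to 0.029, from 0.36 to 1.06, and from -0.18 to 1.11 in these comparisons, and from -1.21 to 0.085 in Trp53 KO against WT.

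Same-numbered libraries correlated between -0.013 and 0.177 in B16 and between -0.021 and 0.092 in KP, so the numbers were not taken to pair them. The block changed no call other than the 2 lost above. With 2 or 3 libraries per group and no known depth, absolute changes in L1Md RNA are beyond these data.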
